A study of Mus musculus with 18 samples.

Results

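The genes described here are 10 targets of the transcription factor p53: Cdkn1a, Ccng1, Mdm2, Bax, Eda2r, Phlda3, Trp53inp1, Zmat3, Sesn2 and Gdf15. They were chosen by name, as genes that p53 is known to induce. The choice was made with earlier results of these data known, which limits any comparison of the 10 genes with all genes. All 10 were found among the 55450 genes of the deposited table. All 10 also passed the filter on low counts, which left 21161 genes for testing. They were followed across the 6 groups of a transfection study in mouse embryonic fibroblasts (MEF), with 3 libraries in each group.

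p53 is held at a low level in resting cells because Mdm2, itself a product of p53, marks it for destruction. DNA damage and other stresses free p53 from Mdm2, and p53 then binds pairs of short half-sites in promoters and introns and switches on genes that halt the cell cycle, repair DNA, kill the cell or feed back on p53. Some of these genes, Cdkn1a among them, also have inputs other than p53, including TGF-β signaling.

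All cells came from a MEF culture of the American Type Culture Collection and were transiently transfected with a plasmid by a lipid reagent, so every group, the controls included, had taken up plasmid DNA. Control cells received empty pcDNA3. Col1a1-miR-29b cells received a plasmid that expresses miR-29b from a rat Col1a1 promoter, the promoter of a collagen gene that TGF-β induces, and CMV-miR-29b cells received one that expresses miR-29b from the strong viral CMV promoter. Both miR-29b plasmids express human miR-29b-1 together with EGFP and carry the red fluorescent protein mRFP1 under a separate SV40 promoter. Each plasmid was tested without TGF-β and with TGF-β added 6 h after transfection for 24 h. Cells without any plasmid were not analysed here, so an effect that transfection had in all groups cannot be seen in these data. The plasmids were dosed by molar amount, so the mass of DNA per well differed between them and cannot be told apart from what each plasmid expresses. The methods describe repeated experiments for each group, but neither they nor the labels say whether the 3 libraries of a group came from separate cultures, so the p-values measure only the spread between these libraries, part of which may be technical. Transfected and untransfected cells were sequenced together, and a change in the share of cells that express a gene cannot be told apart from a change in RNA per cell.

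Levels are given as CPM, counts scaled to a common library size with TMM factors, which compares libraries for 1 gene, and as FPKM, which adjusts for transcript length, where different genes are compared. Total counts ran from 65898017 to 80332633 per library, with a median of 74155860. Libraries are named by the letters c, d and e of the sample titles. The third count column of both Col1a1-miR-29b groups has the letter f, which no title has, and is called library f here. Of 9 fibroblast markers, 8 were expressed, with a summed level of 3250 to 7729 CPM, but Thy1, a surface marker of many fibroblasts, was at most 0.114 CPM. Of 5 epithelial markers, 4 were under 1 CPM in every library and Krt19 was at 36.8 to 83.1 CPM.

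The promoters of the members are shown first, because the genes were grouped by their regulation by p53. RefSeq promoter windows of GRCm38.p6, from 250 bases before to 50 bases after a transcription start, were found for 8 of the 10 genes (Trp53inp1 and Zmat3 had no entry). They were searched for the p53 half-site of 10 bases, with no mismatch, and for the full p53 site of 2 half-sites with at most 1 base between them and at most 2 mismatches. The half-site is a palindrome, so a match covers both strands, and a full site can contain a half-site. Of all 32851 promoter windows, 8.36% held a half-site and 0.320% held a full site. The windows below are 100 bases each, on the strand of the gene, with the full site, or else the half-site, in capitals. The Cdkn1a window held 2 half-sites, 1 within the full site and 1 upstream of it that is left in lower case.

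Cdkn1a, chr17:29090879-29090978, plus strand, full site with 1 mismatch, 51 to 32 bases before the upstream start:
Cdkn1a: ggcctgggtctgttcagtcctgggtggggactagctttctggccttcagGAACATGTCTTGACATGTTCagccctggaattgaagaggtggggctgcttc
Bax, chr7:45467040-45467139, minus strand, full site with 2 mismatches and a spacer of 1 base, 201 to 181 bases before the start:
Bax: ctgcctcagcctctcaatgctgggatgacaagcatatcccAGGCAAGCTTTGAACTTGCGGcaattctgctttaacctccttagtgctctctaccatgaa
Mdm2, chr10:117710885-117710984, minus strand, half-site, 186 to 177 bases before the start:
Mdm2: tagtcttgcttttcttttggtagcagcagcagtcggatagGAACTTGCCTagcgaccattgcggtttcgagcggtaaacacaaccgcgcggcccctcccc
Ccng1, chr11:40755412-40755511, minus strand, half-site, 185 to 176 bases before the start:
Ccng1: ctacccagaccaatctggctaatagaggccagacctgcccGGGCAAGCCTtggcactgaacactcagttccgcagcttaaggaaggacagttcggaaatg

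Cdkn1a has 2 listed starts, 2790 bases apart, and the site lies before the upstream one. The window of the downstream start held no match, and neither did those of Eda2r, Phlda3, Sesn2 and Gdf15. Binding of p53 was not measured, and a match or its absence in these windows says nothing about sites elsewhere in the gene. Among the 4 genes with a match, Cdkn1a, Mdm2 and Ccng1 were among those that rose with TGF-β in the comparisons that follow, and Bax was not. Among the searched genes without a match, Eda2r and Phlda3 rose, and Sesn2 and Gdf15 did not. A relation between the matches and the rise was not tested.

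The 10 genes differed widely in level. By FPKM in the 16 libraries whose FPKM columns carry a sample title, Cdkn1a was highest, with a median of 90.4 and a range of 72.4 to 112, and exceeded Ccng1 (median 58.8) in all 16. Bax (30.7), Phlda3 (28.3), Mdm2 (27.9) and Sesn2 (27.2) followed with overlapping ranges, so that their order did not exceed the spread between libraries. Trp53inp1 had a median of 18.5, Zmat3 of 4.43 and Eda2r of 2.95. Gdf15 was lowest, at a median of 0.515 FPKM and 46 to 126 counts per library, where the other 9 genes had at least 931.

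**Figure D1:**
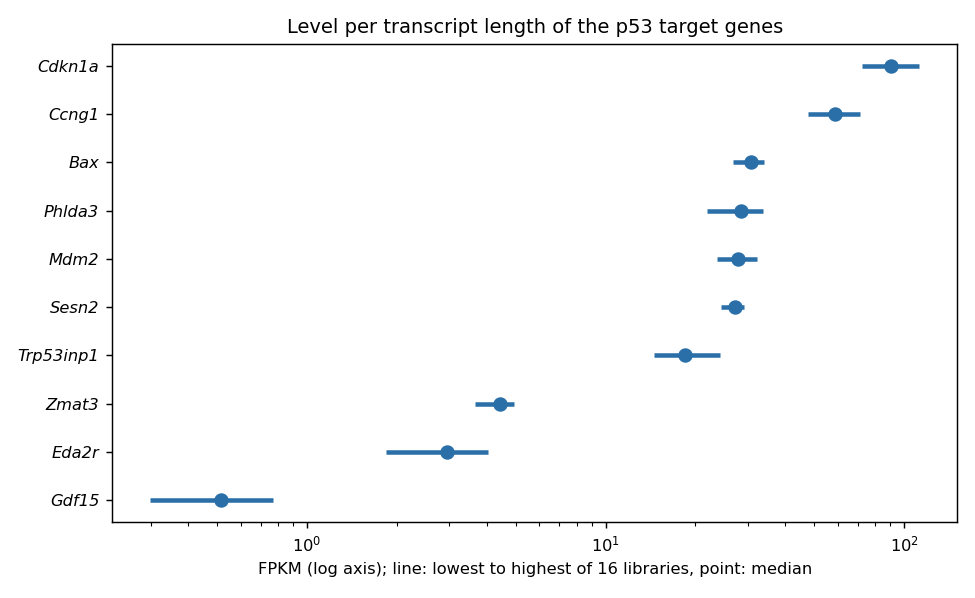
FPKM of each p53 target gene on a log axis, as the median (point) and the lowest to highest value (line) of 16 libraries from all groups. Cdkn1a (median 90.4) and Ccng1 (58.8) stand above the other genes, Bax, Phlda3, Mdm2 and Sesn2 overlap, and Gdf15 (0.515) is lowest.

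The first question was whether TGF-β changed these genes. Averaged over the 3 plasmids, 7 of the 10 genes rose with TGF-β and none fell: Cdkn1a, Ccng1, Mdm2, Eda2r, Phlda3, Trp53inp1 and Zmat3. The changes were small, from 1.11-fold for Zmat3 to 1.35-fold for Eda2r. Of all genes tested, 13.7% passed the same threshold (adjusted p of 0.05, edgeR's quasi-likelihood test), and 7.83% were higher. The median log2 fold change of the 10 genes was 0.26, against -0.005 over all genes. The 7 genes were called in each fit that left out 1 library and in the fit without both f libraries. With limma on FPKM the count was 6, because Zmat3 no longer passed. Scaled by total counts, 1415 genes were higher and 1608 lower over the whole table, against 1656 and 1241 with TMM, and the 7 genes still rose.

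Cdkn1a encodes p21, the kinase inhibitor that holds cells before DNA replication, and lies on the plus strand of chromosome 17 from 29090976 to 29100727 (GRCm38, as are the other gene positions below). In empty vector cells it was at 309, 309 and 319 CPM in libraries c, d and e without TGF-β, and at 411, 362 and 422 CPM with it. In Col1a1-miR-29b cells it was at 336, 351 and 359 CPM in libraries c, d and f without TGF-β, and at 442, 439.7 and 438 CPM with it. In CMV-miR-29b cells it went from 290.1, 309 and 299 CPM to 406, 366 and 378 CPM. All 9 treated libraries were above all 9 untreated ones, the lowest treated value being that of empty vector library d. Averaged over plasmids, Cdkn1a rose 1.27-fold (log2 0.35, standard error 0.03, adjusted p = 6.16e-07 from edgeR). The gene overlaps AC167363 on the opposite strand by 1046 bases. That gene had 96 to 200 counts per library, against at least 22776 for Cdkn1a, and whether the counting used strand is not given in the sources used here.

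Ccng1 (chromosome 11, minus strand, 40748552 to 40755311) encodes cyclin G1, which acts on p53 through Mdm2. In empty vector cells it was at 188, 221 and 214 CPM without TGF-β and at 226, 281 and 236 CPM with it. In Col1a1-miR-29b cells the values were 229, 241 and 247 CPM without TGF-β and 249, 263 and 274 CPM with it. In CMV-miR-29b cells they were 189, 213 and 205 CPM without TGF-β and 268, 256 and 254 CPM with it. Treated libraries lay above untreated ones for every plasmid, though untreated Col1a1-miR-29b library f was higher than 2 treated empty vector libraries. The averaged rise was 1.19-fold (log2 0.25, standard error 0.04, adjusted p = 0.000949 from edgeR).

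Mdm2 (chromosome 10, minus strand, 117688875 to 117710758), the ubiquitin ligase that limits p53, was at 135, 138 and 141 CPM in untreated and 171, 167 and 178 CPM in treated empty vector cells. In Col1a1-miR-29b cells it was at 144, 146 and 162 CPM without TGF-β and at 169, 168 and 192 CPM with it, library f being the highest of both groups. In CMV-miR-29b cells it was at 143, 137 and 151 CPM without TGF-β and at 182, 170.1 and 173 CPM with it. As for Cdkn1a, all 9 treated libraries exceeded all 9 untreated ones. Mdm2 rose 1.21-fold on average (log2 0.28, standard error 0.03, adjusted p = 2.76e-05 from edgeR).

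Phlda3 (chromosome 1, plus strand, 135766119 to 135769136) encodes a small protein that restrains the survival kinase Akt. It was at 48.1, 38.1 and 42.5 CPM in untreated and 60.7, 55.4 and 59.5 CPM in treated empty vector cells. In Col1a1-miR-29b cells it was at 44.7, 43.2 and 43.2 CPM without TGF-β and at 56.4, 57.7 and 53.4 CPM with it. In CMV-miR-29b cells the values were 43.9, 46.1 and 41.2 CPM without TGF-β and 50.9, 51.3 and 54.8 CPM with it. Phlda3 was the third gene whose treated libraries all exceeded all untreated ones, which 2.25% of the genes tested did. Its averaged rise was 1.28-fold (log2 0.35, standard error 0.04, adjusted p = 2.04e-05 from edgeR).

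Eda2r (chromosome X, minus strand, 97333840 to 97377216) encodes a receptor of the tumor necrosis factor family that binds ectodysplasin A2. Without TGF-β it was at 16.6, 18.7 and 18.5 CPM in empty vector cells, and with TGF-β at 23.5, 26.8 and 22.8 CPM. In Col1a1-miR-29b cells it was at 18.2, 19.7 and 18.7 CPM and at 25.3, 23.7 and 23.6 CPM, in the same order. In CMV-miR-29b cells it was at 14.7, 17.0 and 12.1 CPM without TGF-β and at 23.4, 18.001 and 21.1 CPM with it, and the lowest library of either treatment was one of these. Treated libraries exceeded untreated ones with every plasmid, but treated CMV-miR-29b library d lay below 5 of the 9 untreated libraries. Eda2r had the largest averaged rise of the 10 genes, 1.35-fold (log2 0.44, standard error 0.07, adjusted p = 0.000227 from edgeR). Its 95% interval of 1.23 to 1.49 overlapped those of Cdkn1a, Ccng1, Mdm2, Phlda3 and Trp53inp1, but not that of Zmat3 (1.05 to 1.16).

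Trp53inp1 (chromosome 4, plus strand, 11156431 to 11174379), a nuclear stress protein that cooperates with p53 and takes part in autophagy, was at 110, 132 and 127 CPM in untreated and 133, 177 and 144 CPM in treated empty vector cells. In Col1a1-miR-29b cells it was at 129.8, 132 and 146 CPM without TGF-β and at 155, 150.3 and 172 CPM with it. In CMV-miR-29b cells it was at 106, 129.7 and 118 CPM without TGF-β and at 165, 151 and 147 CPM with it. Groups did not overlap within a plasmid, but 2 treated empty vector libraries lay below untreated Col1a1-miR-29b library f. The averaged rise was 1.23-fold (log2 0.30, standard error 0.06, adjusted p = 0.00199 from edgeR).

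Zmat3 (chromosome 3, minus strand, 32334792 to 32366014), a zinc finger protein that binds RNA, changed least of the 7. It was at 47.0, 51.1 and 53.5 CPM in untreated and 55.3, 63.6 and 60.3 CPM in treated empty vector cells. In Col1a1-miR-29b cells it was at 55.4, 55.8 and 56.3 CPM without TGF-β and at 57.8, 58.8 and 59.4 CPM with it. In CMV-miR-29b cells it was at 51.1, 53.8 and 56.5 CPM without TGF-β and at 59.95, 57.1 and 58.2 CPM with it. The gap between the lowest treated and the highest untreated library was under 2 CPM with each plasmid. Averaged over plasmids the rise was 1.11-fold (log2 0.14, standard error 0.03, adjusted p = 0.00822 from edgeR). With limma on log2(FPKM + 1) it was 0.10 and did not pass (adjusted p = 0.121).

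Treated and untreated libraries overlapped for the other 3 genes in every plasmid. Bax (chromosome 7, minus strand, 45461697 to 45466898), which opens the mitochondrial membrane in apoptosis, was at 47.1 to 57.2 CPM without TGF-β and 51.5 to 59.6 CPM with it. Its averaged change was 1.01-fold with a 95% interval of 0.952 to 1.07. Sesn2 (chromosome 4, minus strand, 132492032 to 132510501), a sestrin that restrains growth signaling under metabolic stress, was at 92.6 to 110 CPM without TGF-β and 98.6 to 114 CPM with it, and changed 1.03-fold on average (0.989 to 1.07). Gdf15 (chromosome 8, minus strand, 70629393 to 70632456), a secreted stress cytokine of the TGF-β superfamily, was at 0.821 to 1.75 CPM without TGF-β and 0.632 to 1.48 CPM with it. Its interval was the widest of the 10, 0.659 to 1.19 around 0.885-fold, and it included no change. Sesn2 overlaps Gm12981 and Bax overlaps Gm45808 on the same strand, but those genes had at most 36 and 8 counts in any library.

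**Figure D2:**
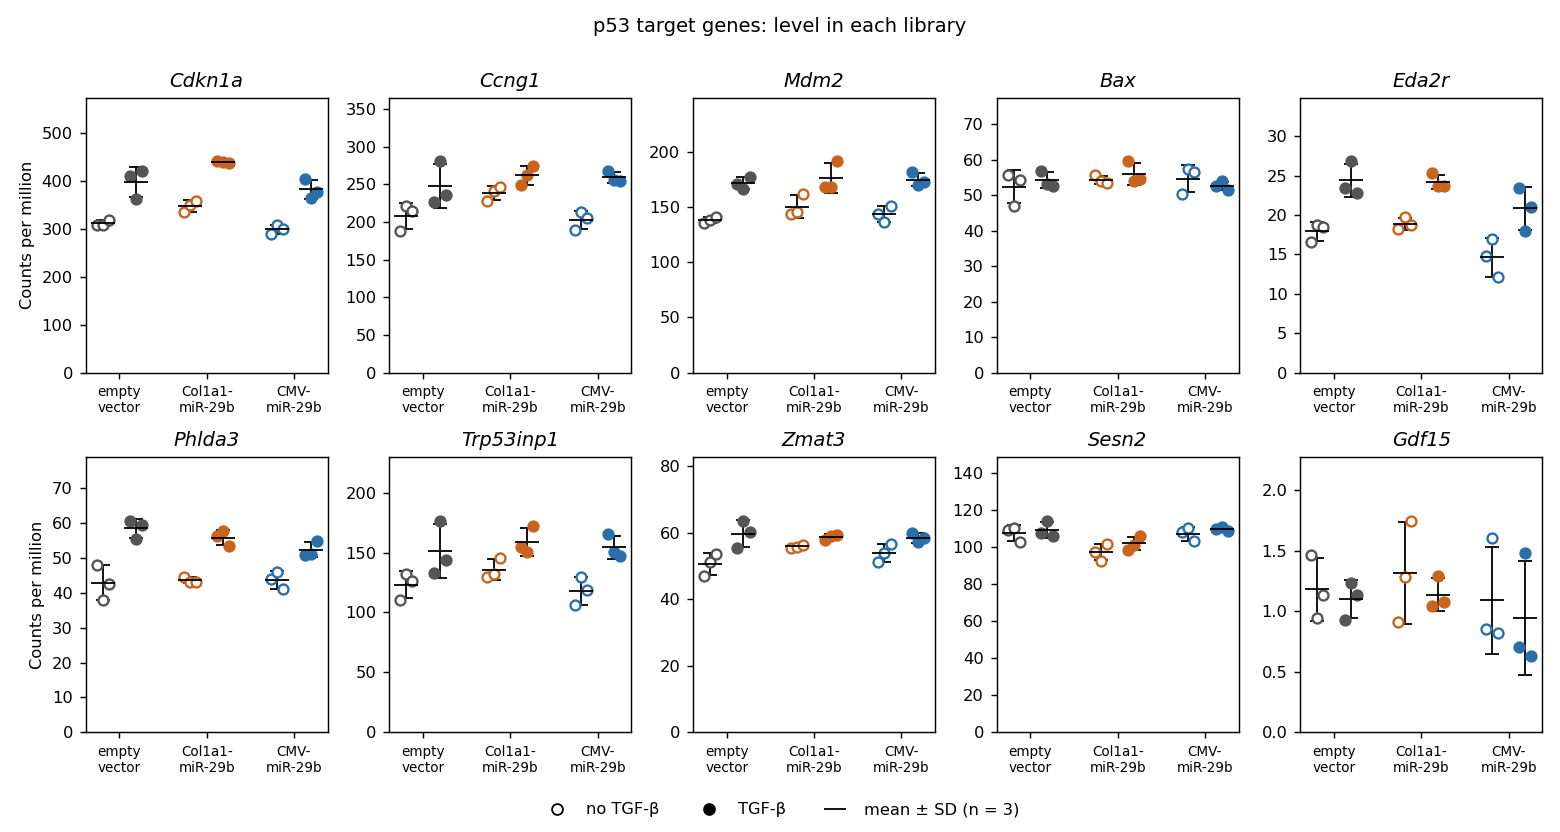
Level of each p53 target gene in each of 18 libraries, in CPM from 0, by plasmid, without TGF-β (open points) and with it (filled points), with the mean and SD of 3 libraries. For Cdkn1a, Mdm2 and Phlda3 all 9 treated libraries lie above all 9 untreated ones, whereas Bax, Sesn2 and Gdf15 overlap within every plasmid.

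Each plasmid was then taken alone, which gave 3 separate comparisons of 3 libraries with 3. In empty vector cells Cdkn1a, Mdm2, Eda2r, Phlda3 and Zmat3 passed the threshold, 5 of 10 genes, where 5.88% of all genes did and 3.88% were higher. In Col1a1-miR-29b cells Cdkn1a, Mdm2 and Phlda3 passed, where 4.32% of all genes did and 3% were higher. In CMV-miR-29b cells Cdkn1a, Ccng1, Mdm2, Eda2r and Trp53inp1 passed, where 4.95% of all genes did and 3.08% were higher. Cdkn1a and Mdm2 were thus called with every plasmid, and no member fell with any. For the same 7 genes every treated library exceeded every untreated one with all 3 plasmids, which 3.92% of the genes tested did. With single plasmids, 11.3%, 11.8% and 11.1% of genes were separated in this direction in empty vector, Col1a1-miR-29b and CMV-miR-29b cells.

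The rise of Cdkn1a had nearly the same size with each plasmid: 1.27-fold in empty vector cells (adjusted p = 0.000477), 1.26-fold in Col1a1-miR-29b cells (adjusted p = 0.000914) and 1.28-fold in CMV-miR-29b cells (adjusted p = 0.000496, all from edgeR). Mdm2 rose 1.24-fold, 1.17-fold and 1.22-fold in the same order. Phlda3 rose 1.37-fold in empty vector and 1.28-fold in Col1a1-miR-29b cells, and was 1.20-fold higher with an adjusted p of 0.057 from edgeR in CMV-miR-29b cells. Eda2r rose 1.36-fold in empty vector and 1.42-fold in CMV-miR-29b cells, and was 1.28-fold higher with an adjusted p of 0.113 from edgeR in Col1a1-miR-29b cells. Which of the smaller changes passed depended on single libraries. In empty vector cells Eda2r was lost when any of the 6 libraries was left out (adjusted p 0.0645 to 0.140), and Zmat3 was lost without untreated c or d or treated d or e (adjusted p up to 0.131). In Col1a1-miR-29b cells Mdm2 was lost without untreated c or d or treated f (adjusted p up to 0.205). Mdm2 kept its call there in 4 of 11 alternatives. In CMV-miR-29b cells Trp53inp1 passed only when all libraries or all but untreated d were used (adjusted p up to 0.184 otherwise). There Eda2r was lost without untreated c or e or treated c or e (adjusted p up to 0.0854), and Ccng1 without untreated c (adjusted p = 0.0667). Cdkn1a kept its call in each of these fits. In empty vector cells 672 genes were higher and 593 lower when scaled by total counts, against 820 and 425 with TMM, and 3 members passed in place of 5.

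**Figure D3:**
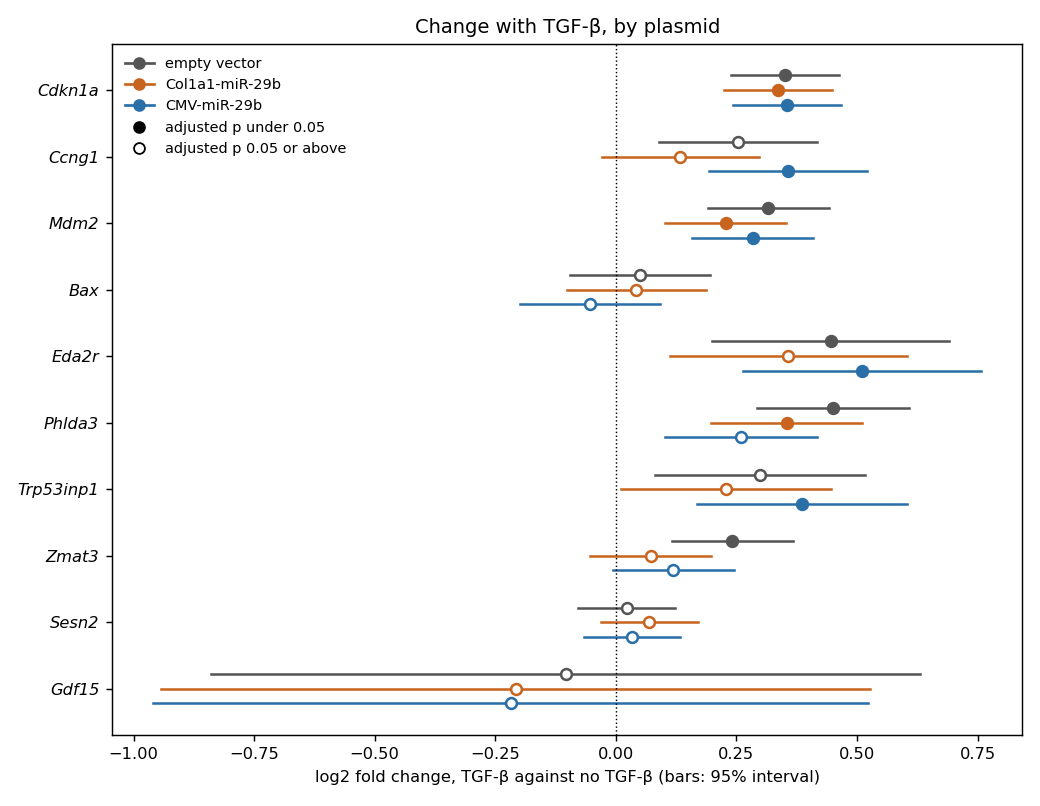
Log2 fold change with TGF-β of each gene in empty vector, Col1a1-miR-29b and CMV-miR-29b cells, with 95% intervals. Filled points passed an adjusted p of 0.05. The intervals of the 3 plasmids overlap for each gene, and Cdkn1a sits at 0.35, 0.34 and 0.35.

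The plasmids were then compared in their response to TGF-β. None of the 10 genes differed between plasmids in the size of its change, and neither did any other gene tested (0% of 21161 genes in all 3 comparisons, edgeR). At an unadjusted p of 0.05, 0 members and 961 genes differed between Col1a1-miR-29b and empty vector cells, 0 and 1129 between CMV-miR-29b and empty vector cells, and 0 and 1083 between the miR-29b plasmids. DESeq2 called 21, 19 and 30 genes in these comparisons, none of them a member. For Cdkn1a the response in Col1a1-miR-29b cells was 0.990 times that in empty vector cells (95% interval 0.888 to 1.10), and that in CMV-miR-29b cells was 1.003 times (0.900 to 1.12). The intervals were wider for Ccng1, where the response in CMV-miR-29b cells was 1.17 times that in Col1a1-miR-29b cells (0.995 to 1.37), and for Zmat3, where that in Col1a1-miR-29b cells was 0.889 times that in empty vector cells (0.787 to 1.01). Each of these intervals includes a ratio of 1.

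The next question was whether the plasmid itself changed the genes. Both miR-29b plasmids were compared with the same empty vector libraries, so the values for the plasmids share their controls. Averaged over treatment, Col1a1-miR-29b cells had more Cdkn1a than empty vector cells, 1.11-fold (log2 0.15, standard error 0.04, adjusted p = 0.00883 from edgeR), and less Sesn2, 0.919-fold (log2 -0.12, standard error 0.03, adjusted p = 0.0157 from edgeR). These were 2 of the 10 genes, or 20%, where 21.8% of all genes tested passed in this comparison, 10.1% as higher and 11.6% as lower. Scaled by total counts, 2661 genes were higher and 2014 lower over the whole table, against 2141 and 2465 with TMM. Sesn2 then did not pass (adjusted p = 0.0705). Sesn2 was at 109, 110 and 103 CPM in untreated empty vector cells and at 97.5, 92.6 and 101 CPM in untreated Col1a1-miR-29b cells, without overlap, and at 107, 114 and 106 against 98.6, 101 and 106 CPM with TGF-β, with library f overlapping. Ccng1 was 1.10-fold higher (95% interval 1.02 to 1.19, adjusted p = 0.078 from edgeR), and passed without treated empty vector library d (log2 0.18, adjusted p = 0.0102) and with scaling by total counts (log2 0.17, adjusted p = 0.0468). The other 7 genes were between 0.986-fold and 1.08-fold.

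Taken at each treatment alone, no member passed between Col1a1-miR-29b and empty vector cells (6.27% of all genes without TGF-β and 12.9% with it, edgeR). At an unadjusted p of 0.05, 4 members passed without TGF-β and 1 with it, and DESeq2 called 1, Sesn2, without TGF-β and 0 with it. Without TGF-β, Cdkn1a, Ccng1, Mdm2 and Zmat3 were higher in all 3 Col1a1-miR-29b libraries than in all 3 empty vector libraries and Sesn2 lower, where 14.9% and 14.1% of genes were separated in these directions. The largest of these differences was that of Ccng1, 1.15-fold (95% interval 1.03 to 1.29, adjusted p = 0.135 from edgeR). Cdkn1a was 1.11-fold higher without TGF-β (adjusted p = 0.0883 from edgeR) and 1.10-fold higher with it (adjusted p = 0.0895 from edgeR). With TGF-β its libraries did not overlap between the plasmids, and 14.8% of genes were higher in this way. Cdkn1a passed in both comparisons with scaling by total counts, which also turned the split of all genes from 543 higher and 784 lower to 679 and 643 without TGF-β, and from 1123 and 1615 to 1469 and 1323 with it.

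CMV-miR-29b and empty vector cells did not differ in any member, without TGF-β, with it or averaged over both, and hardly any gene of the whole table passed (0.00473%, 0.00945% and 0.0898%, edgeR). DESeq2 also called 0 members in all 3, but 37, 294 and 344 genes of the whole table, where edgeR called 1, 2 and 19. At an unadjusted p of 0.05, 1 member passed without TGF-β (Eda2r) and 1 with it (Phlda3). Phlda3 was at 50.9 to 54.8 CPM in treated CMV-miR-29b and 55.4 to 60.7 CPM in treated empty vector cells, without overlap, where 8.01% of genes were lower in this way. In the average, 1 member had an unadjusted p under 0.05, Eda2r, at 0.836-fold (95% interval 0.741 to 0.942, adjusted p = 0.22 from edgeR). The intervals of the other 9 genes included no change. For Cdkn1a the interval was 0.909 to 1.01, and for Mdm2 0.969 to 1.10.

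CMV-miR-29b cells had less Cdkn1a than Col1a1-miR-29b cells without TGF-β, 0.86-fold (95% interval 0.796 to 0.928, adjusted p = 0.0475 from edgeR), which made 1 of 10 genes where 1.81% of all genes passed and 0.803% were lower. With TGF-β the value was 0.871-fold (0.806 to 0.940, adjusted p = 0.0634 from edgeR) and no member passed, where 1.93% of all genes did. All 3 CMV-miR-29b libraries were below all 3 Col1a1-miR-29b libraries for Cdkn1a at both treatments. With TGF-β the same held for Eda2r, and Sesn2 was higher without overlap, where 11.7% of genes were lower and 11.6% higher in this way. At an unadjusted p of 0.05, 2 members passed with TGF-β, and DESeq2 called 1, Cdkn1a. The call without TGF-β was close to the threshold: it was lost whenever any of the 6 libraries was left out, and in 6 of 11 alternatives. Untreated CMV-miR-29b cells were also lower in Ccng1 (0.847-fold), Eda2r (0.775-fold) and Trp53inp1 (0.87-fold) and higher in Sesn2 (1.10-fold), each without overlap, but with adjusted p of 0.115 or more from edgeR. Of all genes, 11.1% were lower and 10.9% higher without overlap in this comparison. The split of all called genes was 212 higher and 170 lower with TMM and 145 and 188 with scaling by total counts.

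**Figure D4:**
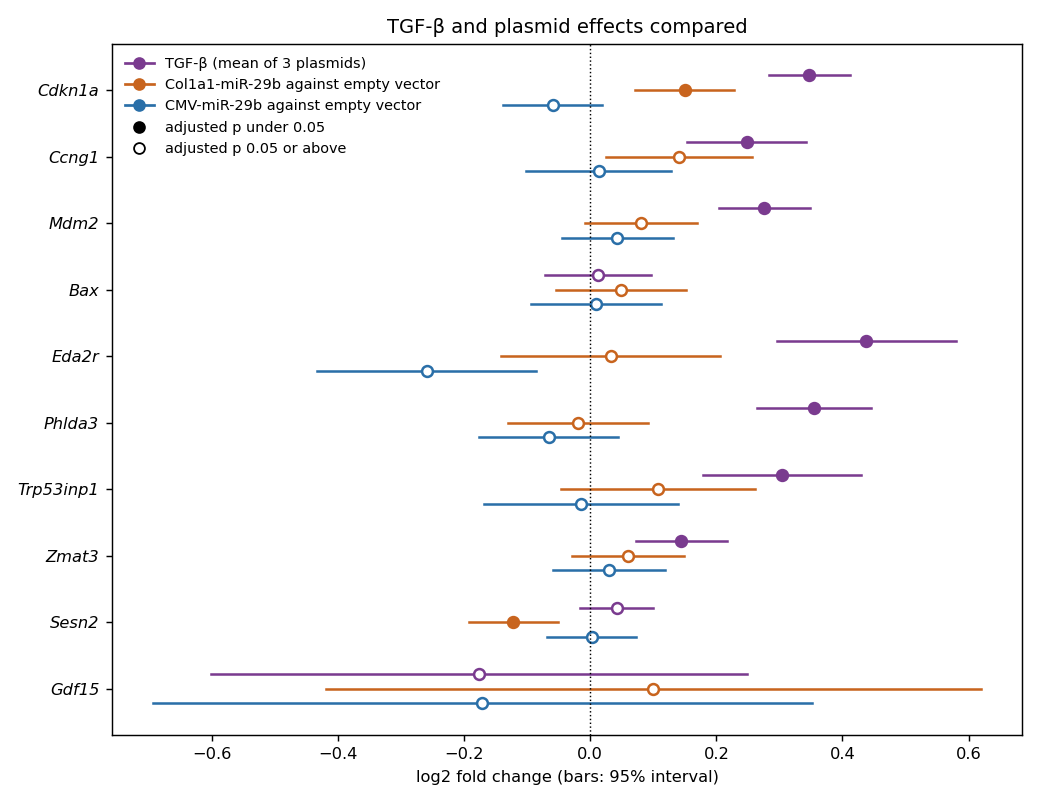
Log2 fold change of each gene with TGF-β, averaged over 3 plasmids, and with each miR-29b plasmid against empty vector, averaged over treatment, with 95% intervals. Filled points passed an adjusted p of 0.05: 7 genes for TGF-β, Cdkn1a and Sesn2 for Col1a1-miR-29b and none for CMV-miR-29b.

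miR-29b is the product of both plasmids, so the members were searched for its target sites. A microRNA finds its targets mainly by pairing of its seed with messenger RNA, usually beyond the coding part. The mature strand from RefSeq is shown with its seed, bases 2 to 8, in capitals.
miR-29b-3p: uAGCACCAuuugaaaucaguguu
Of the 10 genes, 4 have a match to the seed (TGGTGCT) in their longest annotated 3′ UTR, where 14.8% of 14367 tested genes do. These shares take no account of length, and a longer UTR has more places for a match. The UTRs of Eda2r, Trp53inp1 and Zmat3 have 3634, 4420 and 6692 bases and that of Cdkn1a 1334, against 150 to 2316 for the members without a match. The matches are shown with their surroundings, on the strand of the gene, with the seed match in capitals.
Cdkn1a, chr17:29100683-29100711: gaccccaaagcTGGTGCTcaataaatact
Eda2r, chrX:97336641-97336669: cagggaccattTGGTGCTttcttggctta
Trp53inp1, chr4:11171230-11171258: ttcttcagggtTGGTGCTaatgaggctag
Zmat3, chr3:32335934-32335962: cctccacctccTGGTGCTgggattacagg

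Against empty vector and averaged over treatment, these 4 genes were at 0.96-fold, 0.836-fold, 0.990-fold and 1.02-fold in CMV-miR-29b cells, in the order shown. In Col1a1-miR-29b cells they were at 1.11-fold, 1.02-fold, 1.08-fold and 1.04-fold. The study reported far less miR-29b in these cells than in CMV-miR-29b cells without TGF-β, and a rise with TGF-β. The average over treatment thus mixes different levels of miR-29b in Col1a1-miR-29b cells. None of the 4 was called lower with either plasmid, and Cdkn1a was called higher with Col1a1-miR-29b. A seed match is a description of the sequence, and binding of miR-29b was not measured.

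Other genes of the pathway were taken from lists of known members. The gene that encodes p53, Trp53, was named outside the rule for list genes, because it encodes the factor that defines the group. It was at 168 ± 13.1 CPM (SD, n = 3) in untreated and 169.5 ± 18.03 CPM (SD, n = 3) in treated empty vector cells, and its averaged log2 fold change with TGF-β was -0.01 (standard error 0.06, adjusted p = 0.944 from edgeR). The level of p53 protein was not measured. Of 14 genes tested of p53 and its regulators, 2 fell with TGF-β and none rose, a share near the 13.7% of all genes that passed in this comparison. Pik3r1, a regulatory subunit of PI3 kinase, fell by 0.18 on the log2 scale (standard error 0.05, adjusted p = 0.0313 from edgeR), and Atm, a kinase that signals DNA breaks to p53, fell by 0.14 (standard error 0.04, adjusted p = 0.0335). The median of the list was -0.008, against -0.005 over all genes.

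Of 29 other p53 targets tested, of 30 listed, 8 rose with TGF-β and 3 fell, with a median log2 fold change of 0.05. Over all genes tested, 13.7% passed in this comparison and 7.83% were higher. The 3 with the smallest adjusted p were Ephx1, a detoxifying epoxide hydrolase, Apaf1, which activates caspases in the apoptosome, and Fas, a death receptor. Averaged over plasmids, Ephx1 fell by 0.36 on the log2 scale (standard error 0.04), Apaf1 rose by 0.24 (standard error 0.03) and Fas rose by 0.39 (standard error 0.05). The log2 fold changes of Ephx1 were -0.42 in empty vector, -0.25 in Col1a1-miR-29b and -0.40 in CMV-miR-29b cells. Those of Apaf1 were 0.41, 0.07 and 0.24 in the same order, and Apaf1 did not pass in Col1a1-miR-29b cells (adjusted p = 0.67 from edgeR). Those of Fas were 0.29, 0.39 and 0.49, and Fas did not pass in empty vector cells (adjusted p = 0.0988 from edgeR). The other 2 that fell, named after their values were seen, were Ddb2, a DNA damage sensor, by 0.19 (standard error 0.06), and Trp73, a relative of p53. Trp73 was at most 0.167 CPM in any library and at 0 CPM in treated Col1a1-miR-29b and CMV-miR-29b cells. It passed the filter on low counts only through untreated libraries, so its call is not read as a response to TGF-β. Among the 10 members 7 rose and among these 29 genes 8, and no test of that difference was made.

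Cdkn1a acts in part through the DREAM complex, which represses cell cycle genes. Of 12 such genes tested, 1 fell with TGF-β, Mki67, a proliferation marker, by 0.11 on the log2 scale (standard error 0.03, adjusted p = 0.00867 from edgeR), and none rose, where 13.7% of all genes passed. The median of the 12 genes was -0.01 and their range was narrow, with a lowest value of -0.11 and a highest of 0.07. In Col1a1-miR-29b cells, averaged over treatment, Top2a and Mki67 fell by 0.28 and 0.15 and Birc5 rose by 0.10 against empty vector. The same cells had 6 of the 14 regulators lower, led by Mdm4, an inhibitor of p53, at -0.35 (standard error 0.05), Atr, a kinase of replication stress, at -0.31 (standard error 0.05), and Kat5, an acetyltransferase, at -0.39 (standard error 0.08). Of the 29 other p53 targets, 7 rose there, with Tigar, which lowers glycolysis, at 0.28, and Plk2, a polo-like kinase, at 0.30, and 3 fell, Ephx1 at -0.37, Ddit4 at -0.17 and Apaf1 at -0.14 (the last 2 named after their values were seen). These are read against the 21.8% of all genes that passed in that comparison. None of the genes of these lists passed between CMV-miR-29b and empty vector cells.

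**Figure D5:**
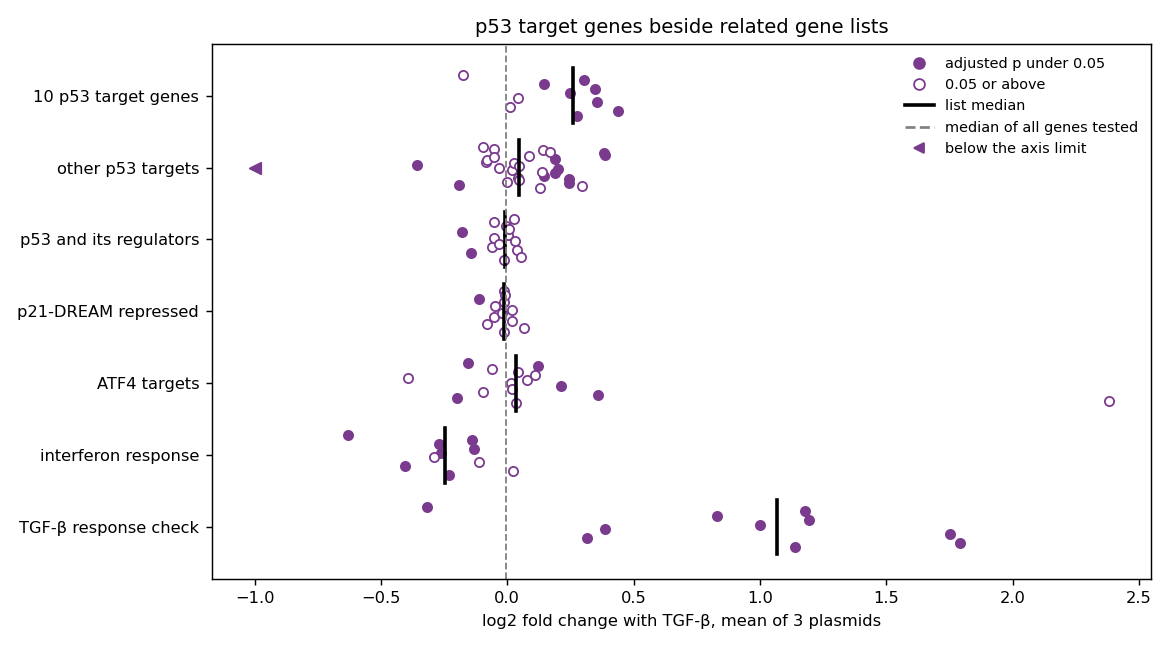
Log2 fold change with TGF-β, averaged over 3 plasmids, of each gene of 7 lists, with the list median (black bar) and the median of all genes tested (dashed line, -0.005). Filled points passed an adjusted p of 0.05. The 10 p53 target genes have a median of 0.26, between that of the TGF-β response genes (1.07) and those of the other lists, and Trp73 of the other p53 targets lies below the axis limit.

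The response to TGF-β itself was checked on 10 tested genes of 11 listed. In the averaged comparison 9 rose, with a list median of 1.07 on the log2 scale, and Id1 fell. Some marker genes of other cells moved with the treatment too. The summed epithelial markers, nearly all of it Krt19, were at 68.6 to 83.6 CPM in untreated and 39.7 to 50.9 CPM in treated empty vector cells. The summed fibroblast markers, which include collagens, were at 4183 to 4607 and 6752 to 7729 CPM. The 4 endothelial markers were at 0.936 to 1.42 and 2.33 to 2.83 CPM in sum. The 4 leukocyte markers, nearly all of it Cd68, were at 11.6 to 12.1 and 8.75 to 11.2 CPM. Of the pluripotency markers, Sox2 was at 0 in every library, Pou5f1 at most at 0.104 CPM and Nanog at 0.935 to 2.24 CPM. Of the skeletal muscle markers, Des was at 13.5 to 21.3 CPM, and Myod1 and Myog were at most at 0.103 and 0.192 CPM. The part of all these markers in the change of the p53 targets was not tested.

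The 10 members did not all vary together over the 18 libraries. Each member's log level was compared with the mean of the other 9, as a description over libraries that share a treatment and a scaling. Pearson's r was 0.71 to 0.84 for the 7 genes that rose, highest for Trp53inp1 and lowest for Zmat3. It was 0.18 for Bax, 0.0046 for Sesn2 and -0.05 for Gdf15. Among 9927 other genes with a mean of at least 10 CPM, the 5 most like the mean of the members were Fkbp10, Sbk1, Rflnb, Tcim and Ppic, with r of 0.91 to 0.92. Fkbp10 encodes a collagen chaperone and Ppic a cyclophilin. All 5 rose with TGF-β in the averaged comparison, from 0.19 on the log2 scale for Ppic to 1.01 for Tcim.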

How the data were processed

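Poly(A) RNA of 18 libraries was sequenced on a NovaSeq with paired ends. The authors mapped reads with HISAT2 and assembled transcripts with StringTie, and deposited a table of read counts and FPKM per gene. How the counts were taken is not given in the sources used here. The labels name mm9, but the deposited coordinates of 52506 of 55450 genes are identical to those of GENCODE M21 on GRCm38, which is used here. The deposited FPKM, attributed by the authors to DESeq2, has 0 replaced by a small constant, and 2 FPKM columns that carry the letter f were not used.

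Counts were tested with edgeR 4.0.16 (R 4.3.3): filterByExpr, TMM factors, 1 mean per group over all 18 libraries, quasi-likelihood F tests and Benjamini-Hochberg adjustment over 21161 genes, with a threshold of 0.05 and 95% intervals. The script was tested on simulated data. Alternatives were DESeq2 1.42.0, edgeR with size factors of DESeq2 or with total counts as library sizes, other filters, and the replicate letter as a block. Also used were groups compared alone, each library left out, counts divided by 4, limma 3.58.1 on FPKM and, chosen after seeing the data, both f libraries left out. The members and lists were chosen with earlier results of these data known. From each list the 3 genes with the smallest adjusted p under the threshold are named. The promoter and microRNA sequences are from RefSeq (GRCm38.p6), and 3′ UTRs are from GENCODE M21.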

Additional observations from a re-analysis of the deposited data

How the results depend on the processing

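The 7 genes that rose with TGF-β in the average were called in 8 of 10 alternatives, and 6 of them with limma. Counts of called members changed for single plasmids. The replicate block was fitted without the f libraries, so that 2 choices changed in it. In empty vector cells 5 became 3 with scaling by total counts, without the f libraries and with limma at either pseudocount (1 or 0.1). It became 4, without Eda2r, with no filter and with the replicate block, 2 with groups compared alone, and 3 to 5 with 1 library left out. In Col1a1-miR-29b cells 3 became 1 with the replicate block, without the f libraries and with both limma fits. Scaling by total counts and no filter gave 2 there, without Mdm2, and leaving out 1 library gave 2 to 3. In CMV-miR-29b cells 5 became 3 with groups alone and with limma at a pseudocount of 1, and 2 to 5 with 1 library left out. It became 4 with total counts, no filter and the f libraries left out, each without Trp53inp1, and with the replicate block, without Eda2r. Counts were higher with DESeq2, at 6, 4 and 6 in empty vector, Col1a1-miR-29b and CMV-miR-29b cells, and at 6 in CMV-miR-29b cells with the filter of 10 counts. Between Col1a1-miR-29b and empty vector without TGF-β 0 became 1 with DESeq2, total counts and the filter of 10 counts, and with TGF-β 1 with total counts. Between the miR-29b plasmids without TGF-β 1 became 2 with DESeq2, and 0 with no filter, the replicate block, the f libraries left out, groups alone, both limma fits and any 1 library left out. With TGF-β 0 became 1 with DESeq2 and the filter of 10 counts. Averaged over treatment, the 2 genes of Col1a1-miR-29b became 1 with the replicate block, where Cdkn1a had an adjusted p of 0.0545. The causes were not tested. Libraries of the same letter hardly shared deviations from their group means (mean correlation of 36 pairs 0.0131, lowest -0.114, over 10020 genes). A mean over all pairs cannot exclude a pairing of some libraries or for some genes.

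Changes of sign occurred only where the log2 fold change was not called. With TGF-β they were Sesn2 in empty vector cells (-0.014 total counts, -0.012 and -0.013 limma), Gdf15 in Col1a1-miR-29b cells (0.097 replicate block, 0.083 without f, 0.020 and 0.055 limma) and Bax in the average (-0.011, -0.0054 and -0.0056). Against empty vector they were Phlda3 (0.012 total counts, 0.034 and 0.035 limma) and Gdf15 (-0.15 replicate block, -0.017 without f) in Col1a1-miR-29b cells, and Trp53inp1 (0.000342 total counts, 0.0050 and 0.0050 limma) and Sesn2 (-0.0024 DESeq2, -0.0023 its size factors, -9.07e-05 no filter, -0.000193 filter of 10) in CMV-miR-29b cells. With 1 library left out, log2 ranges that crossed 0 with TGF-β were, in empty vector cells, Bax -0.032 to 0.088, Sesn2 -0.022 to 0.034 and Gdf15 -0.25 to 0.068, in Col1a1-miR-29b cells Bax -0.0046 to 0.071 and Gdf15 -0.42 to 0.045, in CMV-miR-29b cells Sesn2 -0.0027 to 0.048 and Gdf15 -0.71 to 0.16, and in the average Bax -0.012 to 0.028. Against empty vector they were Phlda3 -0.064 to 0.021 and Gdf15 -0.036 to 0.20 for Col1a1-miR-29b, and Ccng1 -0.020 to 0.054, Bax -0.024 to 0.035, Trp53inp1 -0.059 to 0.039 and Sesn2 -0.013 to 0.016 for CMV-miR-29b. Gdf15 had the fewest counts, at most 126 in a library, and a coefficient of variation of 11.9% to 50.01% within groups.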

Other observations

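Sesn2 and Gdf15 are also induced by ATF4, the factor of the integrated stress response, so other ATF4 targets were described beside them. Averaged over treatment, 7 of 15 tested ATF4 targets were lower in Col1a1-miR-29b than in empty vector cells and none was higher, where 21.8% of all genes passed and 11.6% were lower. The list median was -0.27 on the log2 scale against 0.02 over all genes. The largest of the 3 with the smallest adjusted p was the decrease of Fgf21, a secreted metabolic hormone, at -1.31 (standard error 0.11), followed by Chac1, which degrades glutathione, at -0.67 (standard error 0.06), and Aldh1l2, a mitochondrial folate enzyme, at -0.63 (standard error 0.07). In the same comparison Sesn2 was at -0.12 and Gdf15 at 0.10 (95% interval of the fold 0.747 to 1.54). With TGF-β averaged over plasmids, 3 ATF4 targets rose and 2 fell, where 13.7% of all genes passed, with a median of 0.03.

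Interferon response genes moved in opposite directions in the same 2 comparisons. In Col1a1-miR-29b cells 8 of 10 were higher than in empty vector cells, where 21.8% of all genes passed and 10.1% were higher. Their median was 0.43, led by Cxcl10, a chemokine, at 0.78 (standard error 0.03), Usp18, which dampens interferon signaling, at 0.69 (standard error 0.05), and Ifit1, an RNA-binding antiviral protein, at 0.75 (standard error 0.07). With TGF-β averaged over plasmids 7 of 10 were lower and none was higher, where 13.7% of all genes passed, with a median of -0.25. No ATF4 target and no interferon response gene of these lists passed between CMV-miR-29b and empty vector cells, where the medians were -0.10 and 0.10. Their part in the levels of the p53 target genes was not tested.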
